A study of Mus musculus with 6 samples.

Results

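The genes described here build and load the early secretory pathway of the cell: the signal recognition particle and its receptor, the Sec61 translocon with its TRAP subunits, the signal peptidase, the oligosaccharyltransferase, the COPII and COPI coats, and the receptors that carry cargo in those coats. The list was chosen by name and holds 50 genes in 7 roles. A gene was measured where a probe set of the array carried its symbol alone, and where several did, by the probe set of highest mean over the 6 arrays. This left 49 of the 50 among 18193 genes in all. Sec61g, the small gamma subunit of the translocon, has a probe set that also carries the symbols of other loci and was not measured.

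The samples were small intestinal cells sorted for high GFP from Lgr5-EGFP-IRES-creERT2 mice, which carry GFP and an inducible Cre recombinase in the stem cell gene Lgr5. The compared groups were 3 mice given vehicle (DMSO) and 3 mice given DBZ, a gamma-secretase inhibitor that stops the release of active Notch, both for 24 hours, and all 6 carried the same reporter. The sources used here name no strain and no age. The titles place each array in its group, while the description field names DMSO for all 6, and the dose unit in the labels is implausible, so no dose is given. The study asked which genes mark NOTCH1 inhibition in the mouse intestine. As a check of sort and treatment, Lgr5 was at 204, 259.6 and 271 in the vehicle arrays and 242, 209 and 239 in the DBZ arrays (replicates 1, 2 and 3 in this order, here and below), and the stem cell and Notch-dependent gene Olfm4 at 3627, 4234 and 5177 in the vehicle arrays and 35.9, 18.6 and 29.9 in the DBZ arrays. Of 4 other Notch targets 3 fell, among them Nrarp, with a log2 difference of -1.89 ± 0.19 (SE; limma, adjusted p = 0.016). Of 8 stem cell genes, Lgr5 and Olfm4 among them, 2 fell and 1 rose. Besides Olfm4, Ascl2 fell, at -1.03 ± 0.13, and Sox9 rose, at 0.72 ± 0.10 (SE; limma, adjusted p = 0.025 and 0.027).

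As background, proteins bound for the membrane or the outside are recognised by the signal recognition particle as they leave the ribosome and are threaded through the translocon into the endoplasmic reticulum. There the signal peptidase removes the signal peptide and the oligosaccharyltransferase attaches a preformed glycan to asparagine. COPII vesicles then carry cargo towards the Golgi, and COPI vesicles return escaped residents and receptors. In the intestinal crypt, goblet and Paneth cells carry a heavy load on this pathway, since they export mucins and antimicrobial proteins, and Notch signalling holds crypt cells back from these secretory fates.

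Levels are the deposited intensities of probe sets, and differences are DBZ minus vehicle on the log2(intensity + 16) scale with the moderated standard error. A gene is called where the Benjamini-Hochberg adjusted p over all genes is under 0.05 (limma). Array medians lay between 44.9 and 46.3. Each mouse gave 1 array, so n = 3 per group throughout. RNA integrity can be read from the actin control, whose 3′ probe set was 2.22, 1.61 and 1.69 times as bright as its 5′ probe set in vehicle arrays and 1.53, 1.51 and 1.57 times in DBZ arrays. The groups did not overlap in this ratio. In the same ratio of the Gapdh control they did, at 1.42, 1.11 and 1.07 in vehicle arrays and 1.05, 1.09 and 1.08 in DBZ arrays. The part of RNA integrity in the results was not tested.

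Most of the pathway was higher after DBZ. In 39 of the 49 measured genes every DBZ array lay above every vehicle array, where 17.3% of all genes do so, and in 0 genes every DBZ array lay below, where 15.8% of all genes do so. Among the 9096 genes brighter than the median gene, 2168 lay above and 1569 below in this way. The median log2 difference was 0.61, against -0.02 over all genes. Of the 49 genes 15 rose and 0 fell (limma, adjusted p under 0.05; 42 higher and 0 lower at an unadjusted p under 0.05). The share called higher was 30.6%, against 3.82% of all genes and 5.99% of those brighter than the median gene. That class holds 48 of the 49 but is not matched to them in brightness. Of the 49, 46 lay over the 75th percentile gene and 39 over the 90th. Lower calls made up 1.52% of all genes, and calls in either direction 5.34%.

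The number of calls changed with any 1 array left out, while the direction of most genes did not. Without vehicle replicate 1, 2 or 3, or without DBZ replicate 2, limma called 0 of the 49 higher, with 35, 36, 35 and 33 higher at an unadjusted p under 0.05. Without DBZ replicate 3 it called 4 (Sec11a, Sec11c, Ostc and Cope), and without DBZ replicate 1 it called 35 higher and 1, the COPII gene Sec23a, lower. Between 42 and 45 of the 49 differences stayed positive in these 6 fits, and the median of the 49 stayed between 0.48 and 0.77. With all arrays the count also moved with the scale, to 23 members when 1 was added to the intensities before taking logs and to 3 when 64 was added, and array weights gave 36 (limma). Over all genes the share called higher was 5.27%, 1.7% and 9.12% in these fits, against 3.82% in the main fit. It ran from 0.0879% to 7.17% in those without 1 array.

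**Figure D1:**
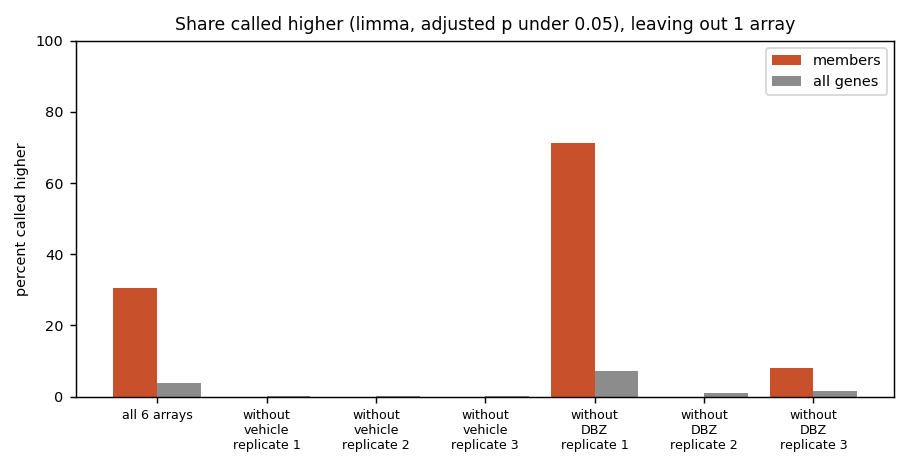
Percent of the 49 measured members (orange) and of all 18193 genes (grey) called higher by limma at an adjusted p under 0.05, with all 6 arrays and leaving out 1 array at a time. The members' share is 30.6% with all arrays, 71.4% without DBZ replicate 1, 8.16% without DBZ replicate 3 and 0 in the other 4 fits, and the share of all genes ranges from 0.0879% to 7.17%.

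The size of the difference varied between the DBZ mice. DBZ replicate 1 was the lowest of the DBZ arrays for 44 of the 49 genes, and DBZ replicate 3 the highest for 41. Among the vehicle arrays, replicate 1 was the lowest for 33. The median of the 49 genes, taken as the difference from the vehicle mean, was 0.30 in DBZ replicate 1, 0.66 in replicate 2 and 0.85 in replicate 3, against -0.07 to 0.06 in the vehicle arrays. For all genes the same median stayed between -0.03 and 0.00.

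**Figure D2:**
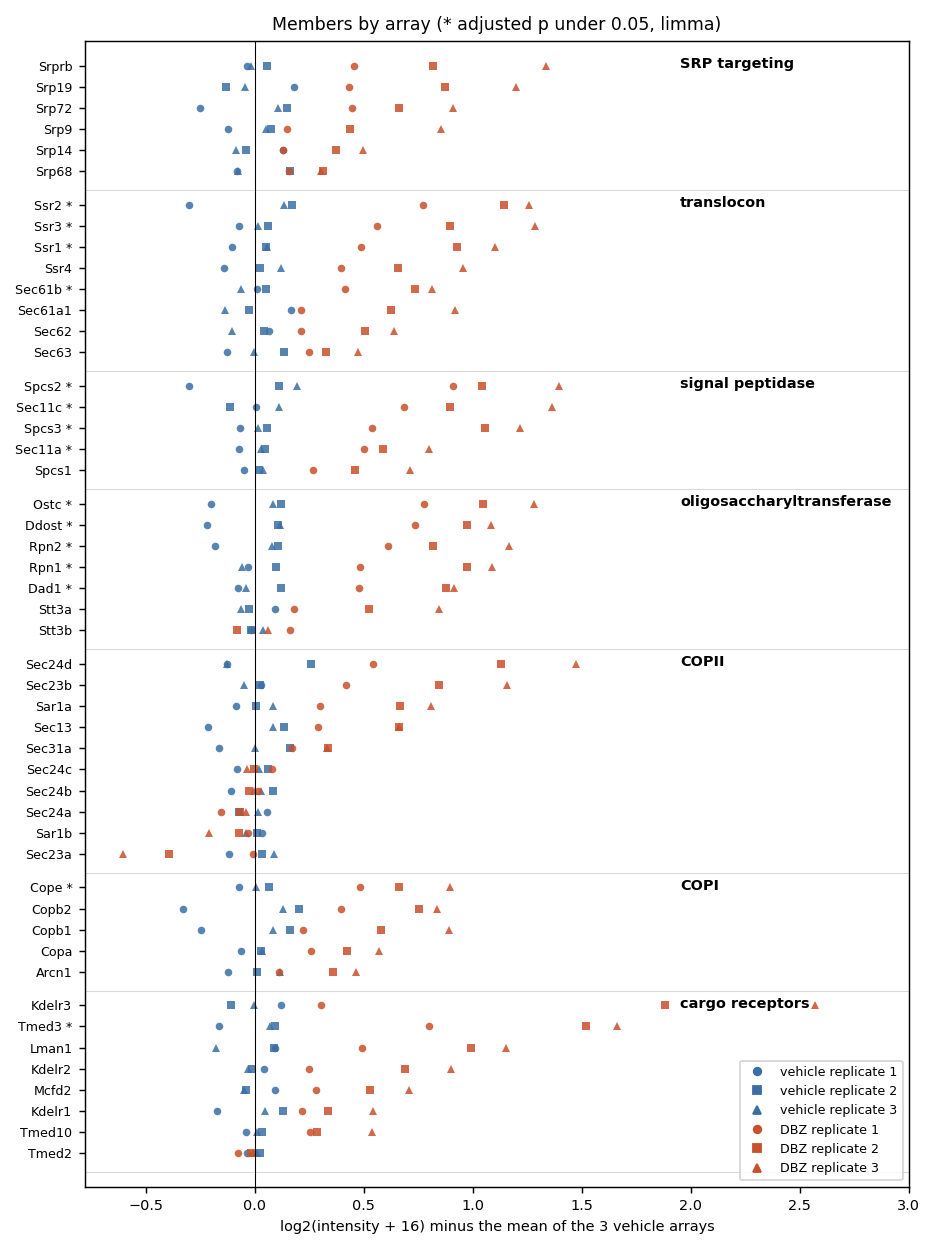
Each measured member by array, as log2(intensity + 16) minus the mean of the 3 vehicle arrays, grouped by role and ordered by size within a role. Blue symbols are vehicle and orange symbols DBZ arrays, with a circle, square and triangle for replicates 1, 2 and 3. In 39 of 49 rows the orange symbols lie wholly to the right of the blue ones, and the orange circle is the leftmost of the 3 in 44 rows.

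Markers of several other cell types that the sort could hold differed between the groups as well. The summed intensities of tuft, Paneth, myeloid, T cell and plasma and B cell genes overlapped between the groups. The summed intensity of 8 goblet cell genes was 108693 to 116568 in vehicle arrays. It was 135082, 159454 and 166862 in DBZ replicates 1, 2 and 3. All 8 lay above the array median in every array, and 3 of the 8 rose. Very bright genes weigh most in this sum, and Tff3 gave the highest intensity of DBZ replicates 2 and 3. The 3 that rose were Spdef, at 1.78 ± 0.23, Agr2, at 1.46 ± 0.16, and Fcgbp, at 0.61 ± 0.08 (SE; limma, adjusted p = 0.025, 0.020 and 0.027). The 8 enteroendocrine genes summed to 3335 to 3955 in vehicle arrays and to 5385, 14680 and 16273 in the DBZ arrays, and 1 of them rose. The 5 tuft cell genes summed to 479 to 571 in vehicle arrays and to 565, 1309 and 997 in the DBZ arrays, and 0 passed (limma; 3 higher at an unadjusted p under 0.05).

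The 7 Paneth cell genes summed to 62772 to 75359 in vehicle arrays and to 35632, 59026 and 71154 in DBZ replicates 1, 2 and 3, with 2 that rose and 1 that fell. The 9 fibroblast and smooth muscle genes, which mark cells that also secrete heavily, summed to 18746 to 27742 and to 40794, 43379 and 47798, and 6 of the 9 rose. Among the DBZ arrays these 5 sums were lowest in replicate 1, and those of the lists that follow were not. The sums of the general epithelial and of the stem cell genes were lowest in replicate 3. The Paneth sums of DBZ replicates 1 and 2 lay below all vehicle arrays. Whether any of these sums moved with the members across arrays was not tested.

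Adipocyte genes, 3 of them, had sums of 1377 to 3060 with vehicle against 4941 to 12583 with DBZ, and 1 rose. The 6 endothelial genes summed to 877 to 981 and 1131 to 1266, with groups apart for all 6 and 1 that rose, Kdr. The 7 myeloid genes summed to 6044 to 7408 and 6215 to 14671, and 2 rose, the neutrophil genes S100a8 and S100a9, by 4.97 ± 0.74 and 4.82 ± 0.78 (SE; limma, adjusted p = 0.029 and 0.033). The vehicle arrays gave 16.9 to 24.0 for S100a8, below the array median, and the DBZ arrays gave 1486, 308 and 2746. All 6 T cell genes and all 7 enterocyte genes had negative differences, and 0 of either passed (limma; 2 and 3 lower at an unadjusted p under 0.05), with sums of 2705 to 5722 and 1208 to 2819 for T cells and 61722 to 65824 and 49838 to 61500 for enterocytes. Plasma and B cell genes, 7 in number and led by Jchain at 10650.2 ± 1554 and 11307 ± 1087 (SD, n = 3), summed to 10490 to 13878 and 11309 to 14118 and overlapped, and 0 of the 7 passed (limma; 0 at an unadjusted p under 0.05). The B cell marker Ms4a1 lay below the array median, at 21.4 ± 4.31 and 25.9 ± 4.86 (SD, n = 3). The part of these cell types in the members' differences was not tested. Each array measured all sorted cells together, so a higher level per cell cannot be told apart from a larger share of secretory cells among those sorted, nor fewer cells of a type from less RNA in each.

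The genes' promoters are shown because so many of the members differed in one direction. Windows of 250 bases before to 50 after the annotated start were matched in RefSeq (GRCm38.p6) for 38 of the 49 genes. They were searched on both strands for 6 motifs chosen after the differences were known. The letters ACGTGGC, found in promoters of stress-responsive genes of the endoplasmic reticulum and the Golgi, stood in the windows of 14 of the 38, or 36.8%, against 3.95% of 14452 measured genes with a window and 2.95% of 27025 genes in all. Among genes called higher on these arrays, 7.40% of 527 held them. In 11 of the 14 the motif lay before the start, and these stretches follow 5′ to 3′ in the direction of the gene, up to 27 bases on either side of the first match, ending at the start, with the motif on either strand in capitals.
Kdelr3 (chr15:79516350-79516407, plus strand): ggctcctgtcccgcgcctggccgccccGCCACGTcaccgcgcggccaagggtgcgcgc
Mcfd2 (chr17:87266105-87266165, minus strand): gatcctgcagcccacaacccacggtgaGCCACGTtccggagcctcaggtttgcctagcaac
Sar1a (chr10:61680100-61680160, plus strand): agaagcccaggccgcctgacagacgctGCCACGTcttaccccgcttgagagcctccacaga
Sec24c (chr14:20674219-20674279, plus strand): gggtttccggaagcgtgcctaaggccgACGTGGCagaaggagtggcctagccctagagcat
Sec24d (chr3:123267445-123267495, plus strand): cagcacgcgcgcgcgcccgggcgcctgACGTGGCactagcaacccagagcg
Sec63 (chr10:42761446-42761495, plus strand): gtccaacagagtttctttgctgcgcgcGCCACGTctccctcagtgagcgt
Spcs1 (chr14:31001694-31001754, minus strand): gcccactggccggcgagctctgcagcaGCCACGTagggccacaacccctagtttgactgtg
Srprb (chr9:103202069-103202129, minus strand): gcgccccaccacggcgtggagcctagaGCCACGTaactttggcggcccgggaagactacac
Ssr1 (chr13:37994249-37994309, minus strand): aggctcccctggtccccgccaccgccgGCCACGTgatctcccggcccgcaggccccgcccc
Ssr3 (chr3:65392711-65392771, minus strand): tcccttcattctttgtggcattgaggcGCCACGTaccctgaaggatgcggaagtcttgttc
Tmed3 (chr9:89705211-89705271, minus strand): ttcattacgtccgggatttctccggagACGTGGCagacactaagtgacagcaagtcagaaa

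In Sec13, Sec23a and Sec31a the match overlapped or followed the start. TGACGTGG, a sequence that the unfolded protein response factors XBP1 and ATF6 recognise and which shares its last 6 letters with ACGTGGC, was in the windows of Copb1, Copb2, Kdelr3, Sec23a and Sec24d, 5 of 38 or 13.2%, against 0.989% of measured genes. The longer ER stress elements, CCAAT and CCACG with 9 letters of any kind between them and ATTGG and CCACG with 1 between them, were in 0 of 38, against 0.138% and 0.0623%. The cyclic AMP response element TGACGTCA was in 1 (Cope; 2.63%, against 2.92%), and GTGGGAA, bound by the Notch partner RBPJ, in 1 (Kdelr1; 2.63%, against 7.40%).

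Members with and without the motif overlapped in their response. The 14 genes with ACGTGGC had a median log2 difference of 0.56, from -0.34 to 1.58, and 3 of them rose. The 24 without it had a median of 0.60, from -0.11 to 1.12, and 8 of them rose. Members without a matched window are not in this comparison, and they include Ostc, Sec11c, Spcs3 and Ssr2, which rose. Sec24d and Sec24c both hold the motif, and their differences were 1.05 and 0.01. A match describes these letters only and says nothing of binding.

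The signal recognition particle and its receptor come first in the pathway. All 6 measured genes were positive, with a median log2 difference of 0.58 and 4 without overlap of the groups, and 0 passed the test (limma; 6 higher at an unadjusted p under 0.05). Srprb, the membrane-anchored beta subunit of the receptor, was at 159, 171 and 161 in the vehicle arrays and 229.6, 300.5 and 437 in the DBZ arrays, with the DBZ arrays clear of the vehicle arrays. Its difference was 0.87 ± 0.21 (SE; limma, adjusted p = 0.069). Srp19, which helps to assemble the particle, was at 0.83 ± 0.20. Srp72 and Srp68 form a heterodimer in the particle and were at 0.67 ± 0.16 and 0.26 ± 0.09, with apart groups for the first and overlapping groups for the second. Srp68 had the smallest difference of the role, with 638, 759 and 639 in the vehicle arrays and 755, 845 and 839 in the DBZ arrays. Srp9 and Srp14, the dimer that slows elongation, were at 0.48 ± 0.18 and 0.33 ± 0.11.

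The translocon had 4 of 8 measured genes that rose, a median of 0.66 and groups apart for all 8. The TRAP complex, which sits beside the channel and helps some signal sequences to open it, held 3 of the 4. Ssr2, its beta subunit, was at 787, 1096 and 1070.4 in the vehicle arrays and 1675, 2167 and 2352 in the DBZ arrays, with a wide gap between the groups. It rose by 1.06 ± 0.18, or 2.08-fold (SE; limma, adjusted p = 0.034). Ssr3, the gamma subunit, was at 2034, 2232 and 2166 in the vehicle arrays and 3163, 3999 and 5235 in the DBZ arrays and rose by 0.91 ± 0.18. Ssr1, the alpha subunit, went from 2243, 2501 and 2509 to 3388, 4608 and 5193 and rose by 0.84 ± 0.16, again with the lowest DBZ array above the highest vehicle array. Ssr4, the delta subunit, was at 0.67 ± 0.15 and did not pass (limma, adjusted p = 0.06).

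Of the channel itself, the beta subunit gene Sec61b rose by 0.65 ± 0.11 (SE; limma, adjusted p = 0.037), with intensities of 5417, 5569 and 5147 in the vehicle arrays and 7156, 8938 and 9441 in the DBZ arrays. Sec61a1, which encodes the pore-forming subunit, was at 5777, 5052 and 4677 in the vehicle arrays and 5955, 7933 and 9745 in the DBZ arrays. DBZ replicate 1 lay close to the highest vehicle array, and the difference was 0.58 ± 0.19 (SE; limma, adjusted p = 0.12). Sec62 and Sec63, which serve the import of finished chains together with the chaperone BiP, had smaller differences of 0.45 ± 0.12 and 0.35 ± 0.10. Sec63 was the smallest of the role, at 578, 696 and 632 in the vehicle arrays and 757, 798 and 886 in the DBZ arrays, and its groups were still apart.

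The signal peptidase had the highest median of the 7 roles, 0.94, with 4 of 5 genes that rose and groups apart for all 5. Spcs2, a structural subunit, was at 1519, 2026 and 2151 in the vehicle arrays and 3544, 3883 and 4960.2 in the DBZ arrays. It rose by 1.12 ± 0.18, or 2.17-fold, the largest difference of the complex (SE; limma, adjusted p = 0.032). Spcs3, an essential accessory subunit, went from 1022, 1116 and 1082 to 1564, 2246 and 2510.4 and rose by 0.94 ± 0.17. Spcs1, the small subunit, had the smallest difference of the complex, 0.48 ± 0.12 (SE; limma, adjusted p = 0.07). It was at 4058, 4257 and 4315 in the vehicle arrays and 5059.7, 5783 and 6894 in the DBZ arrays.

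The enzyme has alternative catalytic subunits, Sec11a and Sec11c, and both rose. Sec11a was at 2192, 2384 and 2349 in the vehicle arrays and 3270.3, 3477 and 4021 in the DBZ arrays, a rise of 0.63 ± 0.09 (SE; limma, adjusted p = 0.028). Sec11c was at 2245, 2069 and 2424 in the vehicle arrays and 3612, 4179.5 and 5780.4 in the DBZ arrays, a rise of 0.98 ± 0.18 (SE; limma, adjusted p = 0.039). The rise of Sec11c was larger by 0.35 ± 0.14 on the log2 scale (SE), and the within-array differences of the pair did not overlap between groups. The two-sided exact permutation p was 0.1, the smallest that 3 against 3 arrays allow, and 0.18 adjusted over the 9 pairs compared.

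The oligosaccharyltransferase followed with a median of 0.85 and 5 of 7 genes that rose, of which 4 encode subunits that both forms of the enzyme share. Ostc, which belongs to the form docked at the translocon, was at 2287, 2855 and 2789 in the vehicle arrays and 4513, 5445 and 6414 in the DBZ arrays. It rose by 1.03 ± 0.15, or 2.05-fold (SE; limma, adjusted p = 0.028). Ddost, a shared subunit, went from 1939, 2434 and 2455 to 3778, 4450.3 and 4814 and rose by 0.93 ± 0.13 (SE; limma, adjusted p = 0.027). Both genes had a wide gap between the groups. Rpn2, or ribophorin II, was at 1272, 1557 and 1529.6 in the vehicle arrays and 2216, 2564 and 3261 in the DBZ arrays and rose by 0.86 ± 0.16. Rpn1, also known as ribophorin I, was at 3530.2, 3858 and 3460.2 in the vehicle arrays and 5052, 7096 and 7704 in the DBZ arrays and rose by 0.85 ± 0.16. Dad1, with the smallest rise of the shared subunits listed here, was at 2781, 3188 and 2848 in the vehicle arrays and 4085, 5398 and 5535 in the DBZ arrays and rose by 0.75 ± 0.13. In each of these the lowest DBZ array was replicate 1.

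The catalytic subunits are paralogs with separate tasks. Stt3a, the catalytic subunit of the translocon-docked form that glycosylates chains during their import, was at 3479, 3204 and 3116 in the vehicle arrays and 3696, 4700.5 and 5877 in the DBZ arrays, with a difference of 0.52 ± 0.17 and groups apart (SE; limma, adjusted p = 0.12). Stt3b, which glycosylates sites that the first form has skipped, was at 5173, 5185 and 5384 in the vehicle arrays and 5867, 4958 and 5463 in the DBZ arrays, and DBZ replicate 2 lay below all vehicle arrays. Its difference was 0.05 ± 0.08, with a 95% interval of -0.14 to 0.23. The difference between the pair was -0.47 ± 0.24 (SE), Stt3b minus Stt3a, with overlapping groups and a two-sided exact permutation p of 0.2, or 0.23 adjusted over 9 pairs. A second bright probe set of Stt3a gave 0.98 and that of Stt3b gave -0.0021.

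**Figure D3:**
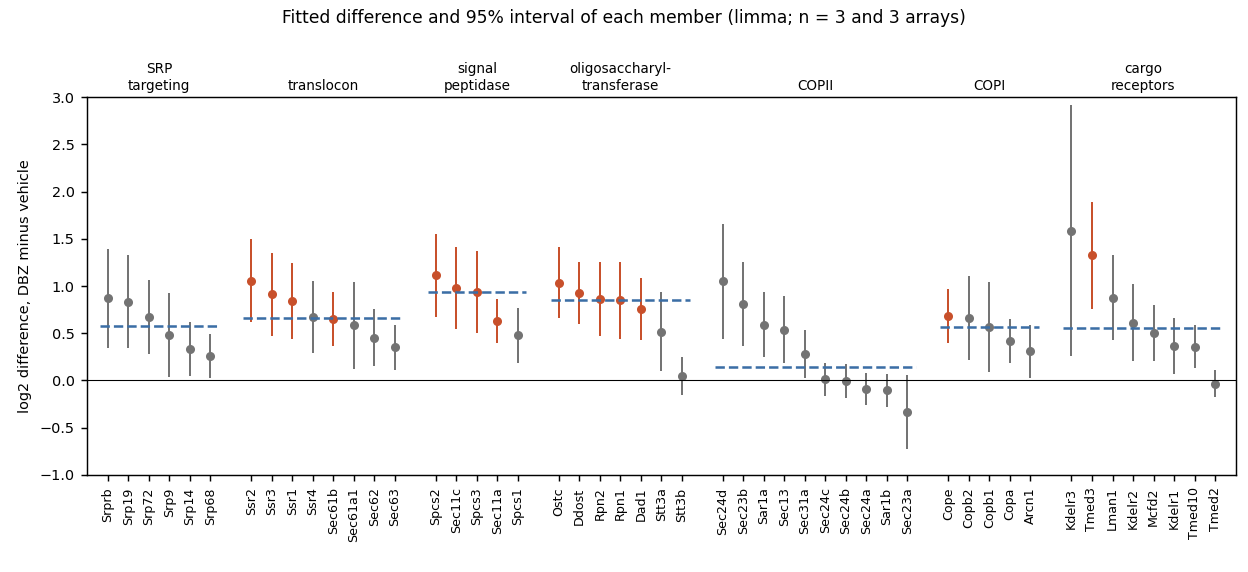
Fitted log2 difference of each measured member, DBZ minus vehicle, with its 95% interval from limma (n = 3 and 3 arrays). Orange marks the 15 members called higher, and the dashed line is the median of each role, from 0.94 in the signal peptidase to 0.15 in COPII. COPII is the role with the most intervals that include 0, those of Sec24c, Sec24b, Sec24a, Sar1b and Sec23a.

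The genes of the COPII coat gave values of both signs, and 0 of its 10 genes passed the test (limma; 5 higher and 0 lower at an unadjusted p under 0.05). The median difference was 0.15, the lowest of the 7 roles, with 6 positive and 4 negative and 5 without overlap of the groups, all higher. Sec24d, a cargo-binding subunit, was at 603, 791 and 601 in the vehicle arrays and 968, 1462 and 1856 in the DBZ arrays. Its difference was the largest of the coat, 1.05 ± 0.25 or 2.07-fold (SE; limma, adjusted p = 0.064). The other 3 cargo-binding subunits had overlapping groups. Sec24c was at 1639.7, 1813 and 1762 in the vehicle arrays and 1836, 1732 and 1691 in the DBZ arrays and Sec24b at 386, 443 and 426 in the vehicle arrays and 422, 409 and 416 in the DBZ arrays. Their differences were 0.01 ± 0.07 and -0.01 ± 0.07, with 95% intervals of -0.15 to 0.18 and -0.17 to 0.16. Sec24a was at 1864, 1703 and 1808 in the vehicle arrays and 1606, 1706 and 1742 in the DBZ arrays, a difference of -0.09 ± 0.07. Sec24d was thus high in all 3 DBZ arrays, while the intervals of the other 3 all include 0.

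In the inner coat and its GTPase, too, paralogs gave different values, and 0 of these 4 genes passed the test (limma; 2 higher at an unadjusted p under 0.05). Sec23b, which pairs with Sec24 to bind cargo and activate the GTPase, was at 1607, 1602 and 1519.9 in the vehicle arrays and 2113, 2838 and 3531 in the DBZ arrays, a difference of 0.81 ± 0.18 with groups apart (SE; limma, adjusted p = 0.057). Sec23a, its paralog, was at 2169.5, 2415 and 2509 in the vehicle arrays and 2349, 1790.2 and 1544 in the DBZ arrays. Its values in DBZ replicates 2 and 3 lay below all vehicle arrays while that of replicate 1 lay among them, and the difference was -0.34 ± 0.16 (limma, adjusted p = 0.24). Without DBZ replicate 1 it was -0.50 and passed (limma, adjusted p = 0.043; 0.043 to 0.50 over the 6 fits without 1 array). Sar1a, the GTPase that starts the coat, was at 796, 848 and 898 in the vehicle arrays and 1044, 1352 and 1496 in the DBZ arrays, with a difference of 0.59 ± 0.14 and groups apart. Sar1b, the paralog needed for chylomicron export in enterocytes, was at 4433, 4357 and 4207 in the vehicle arrays and 4231, 4115 and 3737 in the DBZ arrays, and its difference was -0.11 ± 0.07. Of the outer coat, Sec13 was at 0.54 ± 0.14 and Sec31a at 0.28 ± 0.10, both with groups apart.

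The paralogs were compared directly within arrays. The difference between paralogs, as the DBZ response of one minus that of the other, was 1.14 ± 0.40 for Sec23b and Sec23a, 1.04 ± 0.32 for Sec24d and Sec24c and -0.70 ± 0.21 for Sar1b and Sar1a (SE, n = 3). In all 3 pairs the within-array values did not overlap between groups, and the two-sided exact permutation p was 0.1, the smallest possible in this design, or 0.18 adjusted over 9 pairs. Sec24b and Sec24a differed by 0.08 ± 0.10 with overlap (exact permutation p = 0.4). Of the 9 pairs 5 did not overlap, the others being Sec11c with Sec11a and Tmed3 with Tmed2. The last says nothing of the paralogs, since the probe set of Tmed2 lay below the array median in every array and the value repeats the rise of Tmed3.

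**Figure D4:**
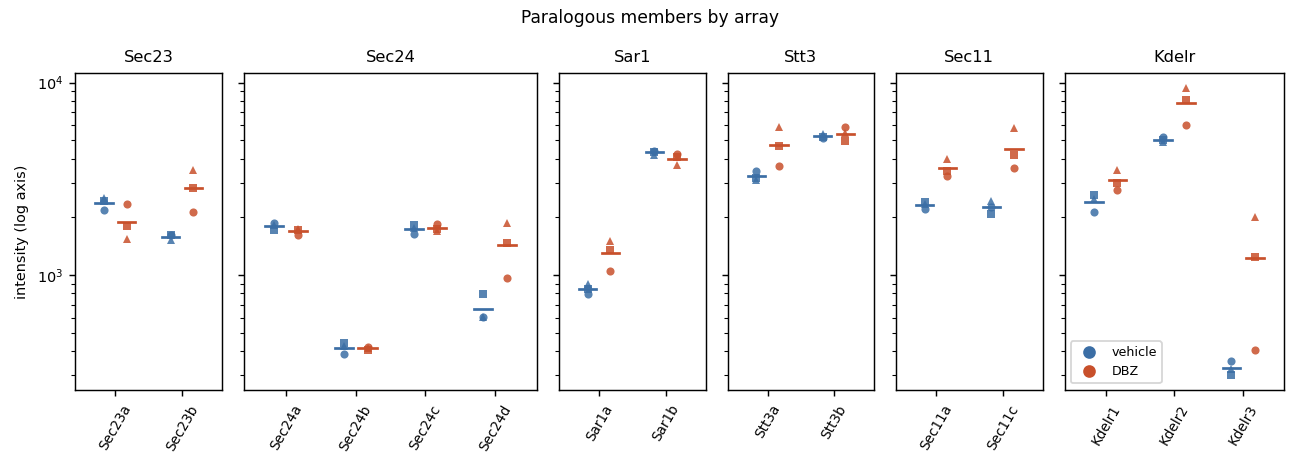
Intensity by array, on a log axis, for paralogous members, with vehicle in blue, DBZ in orange, the replicate as circle, square or triangle and a bar at the mean of 3 arrays. Levels of different genes come from different probe sets and are not comparable, so only blue against orange within a gene can be read. Sec23b, Sec24d, Sar1a, Stt3a, Sec11a, Sec11c and all 3 Kdelr genes have every DBZ array above every vehicle array, while Sec23a, Sec24a, Sec24b, Sec24c, Sar1b and Stt3b overlap.

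The COPI coat, which returns material from the Golgi, was positive in all 5 genes, with a median of 0.56 and groups apart in 4. Cope, the epsilon subunit, was the one that rose, by 0.68 ± 0.11 (SE; limma, adjusted p = 0.034). It was at 2039, 2245 and 2152 in the vehicle arrays and 3000.3, 3395 and 4002 in the DBZ arrays, with a clear gap between groups. Copb2 and Copb1, the beta-prime and beta subunits, were at 0.66 ± 0.18 and 0.56 ± 0.19, and the large alpha subunit gene Copa at 0.41 ± 0.09. Arcn1, the delta subunit, had the smallest difference of the coat, 0.31 ± 0.11. It was at 1715, 1886 and 2024 in the vehicle arrays and 2024, 2399 and 2582 in the DBZ arrays, and vehicle replicate 3 lay just above DBZ replicate 1.

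Of the 8 cargo receptors 7 were positive, 7 had groups apart and 1 rose, with a median of 0.56. The median was 0.61 with dim genes left out, which drops Tmed2. Tmed3, a member of the p24 family that cycles between the endoplasmic reticulum and the Golgi, was at 860.1, 1029.6 and 1014 in the vehicle arrays and 1688, 2794 and 3087 in the DBZ arrays. It rose by 1.33 ± 0.23, or 2.51-fold, the largest difference among the 15 that rose (SE; limma, adjusted p = 0.037). Tmed10, another p24 protein, was at 0.36 ± 0.09 with groups apart. Tmed2 was measured by 1 probe set of very low intensity, 12.2 to 14.3 over the 6 arrays, so its difference of -0.04 ± 0.06 says little about the gene, and its other probe sets carry several symbols and were not used.

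The KDEL receptors return escaped chaperones from the Golgi, and all 3 had groups apart. Kdelr3 had the largest difference of all members and the largest error, 1.58 ± 0.54 (SE; limma, adjusted p = 0.13). It was at 354, 299.99 and 324 in the vehicle arrays and 405, 1241 and 2011 in the DBZ arrays, so that DBZ replicate 1 lay just above the vehicle arrays and replicates 2 and 3 far above them. Kdelr2 was at 5193, 5000.3 and 4932 in the vehicle arrays and 5984, 8128 and 9415 in the DBZ arrays, a difference of 0.61 ± 0.16. Kdelr1 was at 2116, 2615 and 2473 in the vehicle arrays and 2778, 3020.3 and 3492 in the DBZ arrays, a difference of 0.36 ± 0.12. Kdelr3 against Kdelr1 gave 1.22 ± 0.60 and Kdelr2 against Kdelr1 0.25 ± 0.15 (SE), both with overlap and a two-sided exact permutation p of 0.2, or 0.23 adjusted over 9 pairs. The glycoprotein receptor Lman1 and its partner Mcfd2, which together export certain clotting factors, were at 0.88 ± 0.18 and 0.51 ± 0.12 with groups apart, and Lman1 just missed the threshold (limma, adjusted p = 0.05).

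**Figure D5:**
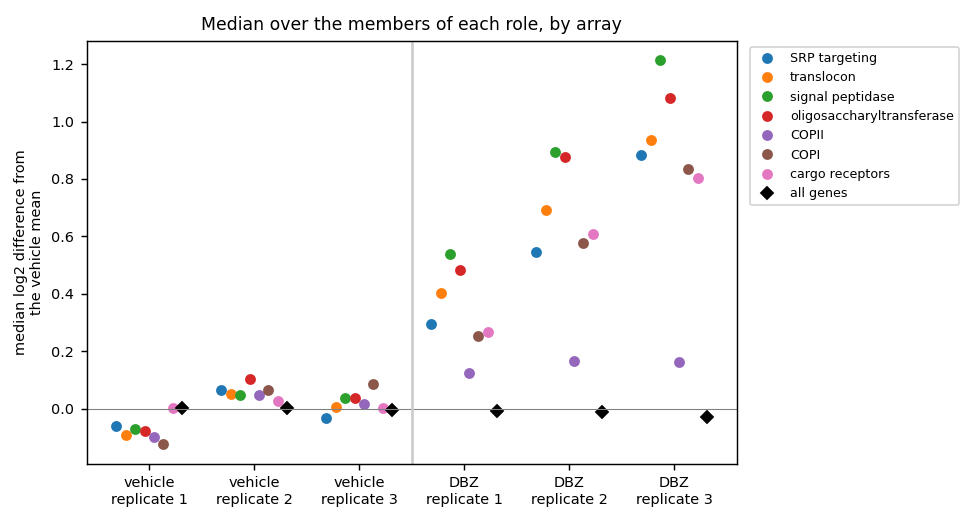
Median over the members of each role, as the log2 difference from the mean of the 3 vehicle arrays, for each array, with all genes as black diamonds. In DBZ replicate 3 the medians run from 0.16 in COPII to 1.21 in the signal peptidase, and in DBZ replicate 1 from 0.12 to 0.54, while the median of all genes stays between -0.03 and 0.00.

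By role, the medians within each DBZ array had the same roles at the top and at the bottom. The signal peptidase stood at 0.54, 0.89 and 1.21 and the oligosaccharyltransferase at 0.48, 0.88 and 1.08 in DBZ replicates 1, 2 and 3, the highest medians in every DBZ array. The translocon stood at 0.40, 0.69 and 0.94. COPII was at 0.12, 0.17 and 0.16, the lowest in each DBZ array and the role whose median varied least between them. The targeting genes at 0.29, 0.55 and 0.88, COPI at 0.25, 0.58 and 0.84 and the cargo receptors at 0.27, 0.61 and 0.80 lay between. The difference between roles was not tested, since the roles were chosen with these data known.

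Other probe sets of the same genes mostly had the same sign. Of the 49 genes 29 have more than 1 probe set, and 50 of their 56 other probe sets had the sign of the one used. Of the 6 with opposite sign only 2 were brighter than the median intensity, those of Stt3b at -0.0021 and Sec62 at -0.04. Sizes varied with the probe set: the other probe sets of Sec61a1 gave 0.49 to 1.07 against 0.58, those of Rpn1 that lay above the array median gave 0.82 to 1.09 against 0.85, and a dimmer one of Lman1 gave 1.60 against 0.88. Sec23a, Sec23b, Sec24d and Sar1b have 1 probe set each, so their contrast rests on single probe sets.

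Beyond the members, 146 other genes of the pathway were measured in 10 lists. Of these 15 rose and 0 fell (limma; 76 higher and 8 lower at an unadjusted p under 0.05), with a median difference of 0.29 and 120 positive. The share called higher was 10.3%, against 3.82% of all genes. It was 7.69% among the Golgi genes, 8.33% among the other COPI genes and 5.56% among the SNAREs and tethers, with 1 call each and near the 5.99% of genes brighter than the median gene. The highest shares were in small lists: 42.9% of 7 glycan trimming genes, 20% of 5 other oligosaccharyltransferase genes and 14.3% of 14 further cargo receptors. Genes that make the glycan and its sugar donors, the largest list, had 4 calls among 31 or 12.9%, with a median of 0.47 and 28 positive. They were Gmppb, which makes GDP-mannose, at 1.03 ± 0.20, Mpi, which feeds mannose phosphate, at 0.58 ± 0.11, Gfpt1, the entry enzyme of the hexosamine pathway, at 0.52 ± 0.07, and the glucosyltransferase gene Alg6 at 0.50 ± 0.08. Of 5 other oligosaccharyltransferase genes 1 rose, Tmem258, by 0.38 ± 0.07, and all 5 had groups apart. Among 7 genes of glycan trimming and lectin folding control 3 rose: Uggt1, the folding sensor, by 0.83 ± 0.13, Calr, a lectin chaperone, by 0.65 ± 0.12, and Prkcsh, the beta subunit of glucosidase II, by 0.39 ± 0.06.

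In the Golgi, 1 of 13 N-glycan processing genes rose, Mgat2, by 0.86 ± 0.18. Of 20 other targeting and insertion genes 2 rose, Tram1, a translocon partner, by 0.60 ± 0.12 and Emc7, of the membrane insertion complex, by 0.52 ± 0.10, and the median was 0.05. The COPI subunit gene Copz1 rose by 0.65 ± 0.12, 1 of 12. Of 14 further cargo receptors Tmed8 rose by 0.97 ± 0.09 and Tmed4 by 0.45 ± 0.07, and of 18 SNAREs and tethers Sec22b rose by 0.83 ± 0.16. Of 7 other COPII genes 0 passed (limma; 2 higher at an unadjusted p under 0.05), at a median difference of 0.05, with Mia3, which loads collagen, at 0.56 ± 0.15 and the scaffold gene Sec16a at 0.56 ± 0.16. The clathrin and adaptor genes, which coat vesicles later in the pathway, had 0 calls among 19 (limma; 5 higher and 1 lower at an unadjusted p under 0.05) and a median difference of 0.07. They include Ap3s1 at 0.30 ± 0.08 and Ap1s2 at 0.41 ± 0.11.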

How the data were processed

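Total RNA of sorted cells was amplified and biotin-labelled with an Affymetrix 3′ IVT kit and hybridised to 6 arrays, 1 per mouse, per the labels' protocols. The values the authors deposited are linear intensities, 1 per probe set and array, with array medians of 44.9 to 46.3. The software, background correction and normalization behind them, and any detection calls, are not stated in the labels. With 3 arrays a group, precision is limited by their number.

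Of 45101 probe sets, 34945 carried 1 gene symbol in the platform's annotation and were used. Another 932 carried several, 9160 none and 64 were controls. Of the used ones 34741 were found in the reference gene table by Entrez identifier, which changed 0 symbols. Each gene took its probe set of highest mean log2(intensity + 16). Array medians differed by under 0.1 on that scale, so nothing was normalized again, and no filter on dim genes was applied.

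Groups came from the sample titles. The 2 groups were tested with limma's lmFit and eBayes (version 3.58.1, R 4.3.3; two-sided, Benjamini-Hochberg over 18193 genes, threshold 0.05), a fit tested on simulated data. A fold change on this scale understates that of dim genes. Paralog pairs were compared by a two-sided exact permutation test over arrays. The members, lists, pairs and naming rule were chosen with earlier results of these data known. Named with all 6 values are members past the threshold, the largest and smallest difference of each role and members of pairs, and from other lists up to 4 members past the threshold or the 2 of smallest p. Promoters came from RefSeq, and the 6 motifs were chosen after the differences had been seen.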

Additional observations from a re-analysis of the deposited data

How the results depend on the processing

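Over 13 alternatives and the 6 fits without 1 array, the 49 members had 42 to 45 positive differences. Role medians were computed under 9 of the 13 and stayed positive. That of COPII ranged from 0.091 with quantile normalization to 0.16, against 0.15. Counts of calls did move. Members called higher were 23 with a pseudocount of 1, 3 with one of 64, 25 without dim genes, 36 with array weights, and 0 and 32 at thresholds of 0.01 and 0.1 (limma; 42 at an unadjusted p under 0.05 for both thresholds). Other pathway genes called higher were 6 with a pseudocount of 64, 27 without dim genes, 8 with the mean of probe sets, 56 with array weights, and 0 and 48 at thresholds of 0.01 and 0.1, and those called lower were 5 with array weights and 2 at 0.1. All genes called higher and lower were 310 and 130 with a pseudocount of 64, 1660 and 1030 with array weights, 28 and 3 at 0.01, and 1642 and 933 at 0.1. They were 958 and 395 with a pseudocount of 1, and 877 and 380 of 9096 without dim genes. The cause of the shifts other than those of threshold and filter was not tested. Leaving out each array in turn gave 16 to 1305 genes higher and 3 to 727 lower, 0 to 35 members higher and 0 to 1 lower, 0 to 45 other pathway genes higher and 0 to 4 lower, and a COPII median of 0.085 to 0.20.

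Sign changed for 3 genes near 0. Stt3b was at -0.0051 with quantile normalization and -0.021 with array weights, and at -0.012 to 0.11 without 1 array. Sec24c was at -0.050 with quantile normalization, -0.093 with the mean of probe sets and -0.012 with array weights, and at -0.028 to 0.043 without 1 array. Sec24b was at 0.047 with the mean of probe sets and at -0.061 to 0.033 without 1 array. None of the 9 paralog pairs changed sign under another pseudocount, quantile normalization or the mean of probe sets.

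Deviations of same-numbered arrays from their group means correlated at -0.0086, 0.25 and 0.20 across genes. Those of differently numbered arrays correlated at -0.29 to 0.014. Whether the replicate numbers pair the arrays was not tested, and the main fit used no block. With the replicate number as a block, 17 members were called higher, of which 13 were among the 15. Of these 15, Sec61b and Rpn1 were not called, and Srp72, Ssr4, Sec13 and Copb2 were added (limma, adjusted p = 0.035 to 0.055 for these 6).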
